A study of Ovis aries with 8 samples.

Results

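The 4 vehicle-infused control fetuses of a sheep study were described alone, by which transcripts gave high, intermediate or background signal in their lungs. They were chosen by their title, as the control twin of each of 4 twin pairs, and make up 4 of the 8 lung samples of the series. The pairs were at about 130 days of a gestation of 147 days. After surgery, with 5 days of recovery, 1 fetus of each pair was given 0.2 mg of aldosterone by infusion for 48 h (2 days), and its twin was given vehicle, so the control lungs come from instrumented fetuses and not from undisturbed ones. The other 4 lungs, infused with aldosterone, enter none of the values below. Strain and sex are not given in the sources used here. Each lung is 1 array of Cy3-labelled cRNA from 450 ng of total RNA of the tissue, hybridised to a sheep array of 60-base probes. Because whole tissue was measured, fewer cells of a type and less RNA per cell cannot be told apart.

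Late in gestation the lung is a fluid-filled organ that is being made ready to breathe air. Its distal airspaces are lined by alveolar type I cells, thin cells that form the gas exchange surface, and by alveolar type II cells, which make surfactant, the lipid and protein film that lowers surface tension. Around them lie capillaries, fibroblasts and smooth muscle, and the epithelium begins to turn from secreting fluid to absorbing it through sodium channels and the sodium pump.

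All signals are given as log2 processed intensity relative to the 75th percentile of the same array, so that a value above 0 is brighter than 75% of the spots and each step of 1 doubles the intensity. A percentile is the place of a probe's mean among all 15008 probes, where 100 is the brightest. The scanner software marks each spot that is well above its local background. Where a gene has several probes, its brightest is given. A probe's signal also depends on how well its own sequence hybridises, so the order of different genes is an order of signals and not of transcript numbers.

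How much the probe matters can be read from probes for the same transcript. The genes below were picked, after their values were seen, because their records are described as partial coding sequence or overlap one and they show both cases. Capitals mark the bases that the members of a pair share, on the same strand for SFTPD and RPS12 and as reverse complements for GAPDH.
SFTPD, rank 737: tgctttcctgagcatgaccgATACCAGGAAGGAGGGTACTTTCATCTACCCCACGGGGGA
SFTPD, rank 787: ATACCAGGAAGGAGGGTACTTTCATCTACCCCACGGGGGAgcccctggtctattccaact
RPS12, rank 4: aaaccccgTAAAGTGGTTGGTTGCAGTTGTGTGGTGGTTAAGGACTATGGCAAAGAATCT
RPS12, rank 5: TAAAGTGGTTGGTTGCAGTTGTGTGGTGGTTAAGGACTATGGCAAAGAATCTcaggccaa
GAPDH, rank 1323: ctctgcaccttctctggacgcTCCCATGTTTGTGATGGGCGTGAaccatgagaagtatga
GAPDH, rank 9279: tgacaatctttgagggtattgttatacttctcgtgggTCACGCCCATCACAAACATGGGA
The SFTPD probes share 40 bases and read 3.12 and 3.0 in the mean of the 4 lungs, and the RPS12 probes share 52 bases and read 7.96 and 7.86. Over all 251 pairs of probes for the same sequence record that share 30 or more bases and were above background on all 4 arrays, the median difference was 0.102. It was 0.804 over the 158 such pairs that share under 15 bases. The GAPDH probes are of opposite strands over 23 bases, and they read 2.14 and -3.70. Across the array 34 pairs of probes share a run of 20 or more bases on opposite strands, and in 29 of them the signals differed by more than 3.

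Of the 15008 probes, 11656 (77.7%) were well above background on all 4 control arrays, 1466 (9.77%) on 1 to 3 and 1886 (12.6%) on none. Most probes of the array come from sheep expressed sequence tags without a gene name. A gene symbol could be given to 1639 probes of 989 genes, and 770 of these genes (77.9%) were above background on all 4 arrays. Among the 100 brightest probes, 39 had a symbol and 58 had a sequence accession only.

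**Figure D1:**
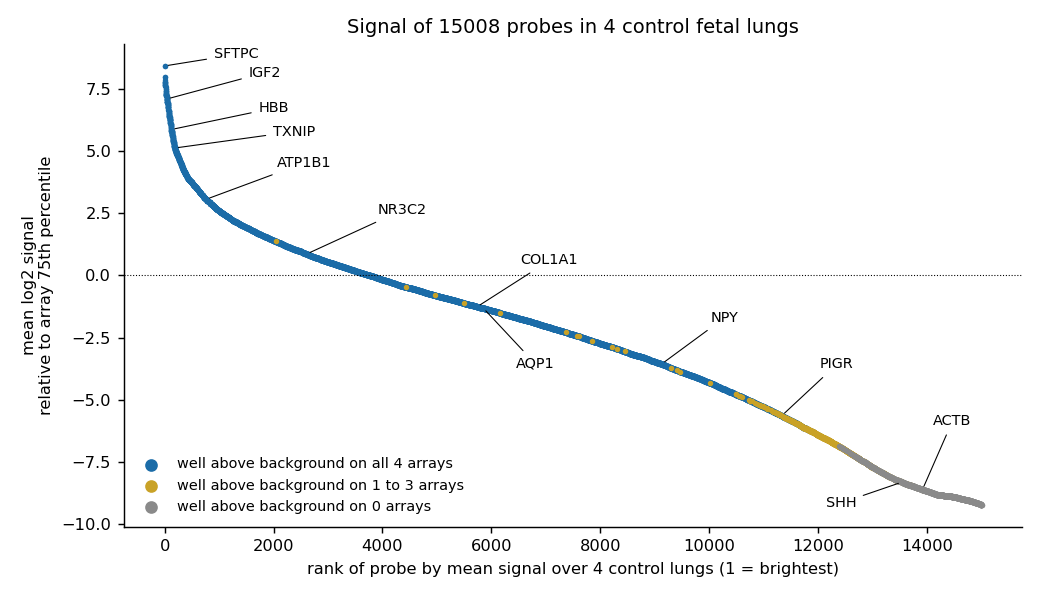
Mean log2 signal of each of 15008 probes over the 4 control lungs (vertical axis, relative to the array's 75th percentile) against its rank (horizontal axis), coloured by the number of arrays on which it was well above background. SFTPC leads at 8.43, COL1A1 lies near the median of the detected probes at -1.26, and SHH and ACTB lie among the probes above background on no array.

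The arrays resembled each other but not equally. Over the 11656 detected probes, Pearson's r between lungs, across probes that are not independent replicates, was 0.984 to 0.989 among control lungs 1, 2 and 3 and 0.970 to 0.976 between these and control lung 4. Control lung 4 also had the most spots well above background, 85.4% against 80.4% to 81.03%, and the lowest 75th percentile of intensity, 1253 against 1402 to 1661. All arrays were on 1 slide. The probes on which it stood apart are described further below. Some spreads and counts are given with and without it, while means are over all 4 lungs.

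The brightest named transcript of these lungs was a type II cell gene. SFTPC, the type II cell's hydrophobic surfactant protein C, held ranks 1 and 3 of all probes with its 2 probes. Its brighter probe read 8.20, 8.35, 8.55 and 8.61 in control lungs 1 to 4, an SD of 0.19. SFTPA1, the collectin surfactant protein A, had a mean of 6.83 ± 0.34 (SD, n = 4; rank 61). SFTPB, the protein that spreads the surfactant film, had a mean of 5.97 ± 0.29 (rank 117), while its second probe read 3.40.

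SFTPD, the collectin surfactant protein D, was dimmer and less even. It read 2.87, 2.86, 2.98 and 3.77, with control lung 4 above the other 3, which lay within 0.13 of each other. Its second probe, which shares 40 bases, was also highest in control lung 4, at 2.78, 2.63, 2.94 and 3.66, with more spread among the other 3. FABP5, a fatty acid carrier, had a mean of 3.65 ± 0.42, and ACLY, which makes cytosolic acetyl-CoA for lipid synthesis, of -0.45 ± 0.34. The lipid synthesis genes SCD, FASN and ACACA, named after their values were seen, were dim, with means of -3.2, -3.85 and -4.8. Of the 23 listed type II and surfactant genes 9 were measured, with a median percentile of 95.1. All 9 were above background on all 4 arrays, against 77.9% of all named genes. In 8 of these 9 genes control lung 4 gave the highest value, where it was highest for 33.8% of all detected probes.

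Type I cell genes were in the upper range. CAV1, the coat protein of caveolae, read 2.69, 2.2, 2.40 and 2.32, and its second probe had a mean of only -1.44. AQP5, the water channel of type I cells, read -0.78, -0.96, -0.65 and 0.24, again with control lung 4 on top. ICAM1, an adhesion molecule found on type I cells and on activated endothelium, read 0.85, 0.47, 0.43 and 3.04. The median SD of the 5 measured genes of this list was 0.63 over 4 lungs and 0.25 without control lung 4.

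Airway genes covered nearly the whole range of signal. SCGB3A2, a secretoglobin of the conducting airways, read 5.38, 4.26, 6.11 and 5.77, with control lung 2 below the others. ALDH1A1, which makes retinoic acid, was even at 5.31, 5.05, 5.04 and 4.93. TFF3, a mucosal trefoil peptide, had a mean of 2.16 ± 0.31, and SLPI, an antiprotease of airway secretions, of -2.19 ± 0.43. PIGR, the receptor that carries antibodies across epithelium, had a mean of -5.64 ± 0.59, and both probes of TP63, the regulator of basal cells, were above background on no array.

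The plot of cell type genes by lung shows that most of these lines kept their place in every lung.

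**Figure D2:**
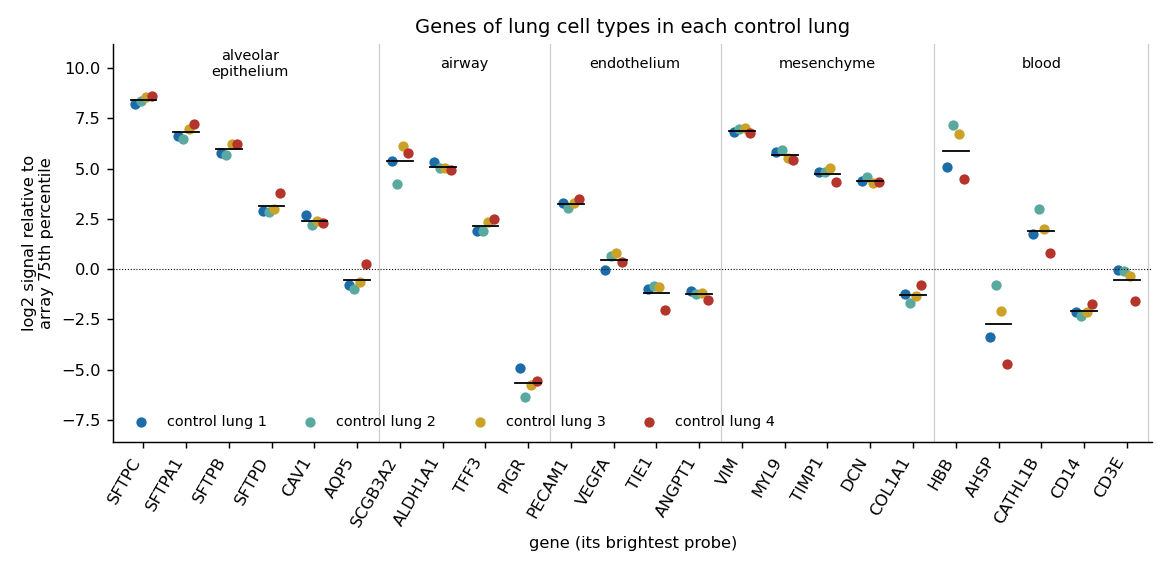
Log2 signal relative to the array's 75th percentile (vertical axis) of 24 genes grouped by tissue part, for each control lung (coloured points) with the mean (black bar). In the endothelium group, VEGFA and ANGPT1 are factors that act on vessels and are not markers of endothelial cells. SFTPC, VIM and DCN vary little between lungs, while HBB spans 4.48 to 7.18 and AHSP -4.71 to -0.79.

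Most measured genes of smooth muscle and mesenchyme were bright. VIM, the intermediate filament of mesenchymal cells, read 6.80, 7.0, 7.02 and 6.76, and MYL9, a myosin light chain of smooth muscle, had a mean of 5.67 ± 0.24. MYLK, the kinase that activates smooth muscle myosin, had a mean of 3.88 ± 0.57, and CNN1, calponin of smooth muscle, of 3.0 ± 0.26. The growth factors FGF7 and FGF10, named after their values were seen, were lower, at -0.83 ± 0.28 and -0.9 ± 0.13. Each had 4 probes, and the dimmest had means of -5.51 for FGF7 and -2.90 for FGF10. All 8 measured smooth muscle and mesenchyme genes were above background on all 4 arrays, against 77.9% of all named genes. Their median percentile was 93.4.

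Matrix genes were mostly in the middle of the range. TIMP1, an inhibitor of matrix metalloproteinases, had a mean of 4.75 ± 0.30 and DCN, the collagen-binding proteoglycan decorin, of 4.39 ± 0.12. COL1A1, the alpha 1 chain of type I collagen, read -1.26, -1.67, -1.33 and -0.78, next to the median of all detected probes, -1.31. Of 18 measured matrix genes 16 were above background on all 4 arrays, against 77.9% of all named genes. MMP1, a collagenase, was above background on none.

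Genes of the endothelial list, which holds factors that act on vessels as well as endothelial markers, had a median percentile of 59.6. That of the matrix genes was 62.2. PECAM1, an adhesion protein of endothelial junctions, was the brightest of the list and read 3.27, 3.05, 3.28 and 3.47. Further genes of the list, named after their values were seen, were much dimmer. The means were -1.52 for KDR, -2.26 for NOS3, -2.35 for TEK, -3.0 for DLL4 and -4.5 for FLT1. VEGFA, the growth factor that endothelium follows, had a mean of 0.45 ± 0.38. ANGPT1, which steadies vessels, and ANGPT2, its context-dependent antagonist, had means of -1.25 ± 0.18 and -1.09 ± 0.25. TIE1, a receptor of their pathway, read -0.99, -0.85, -0.86 and -2.03, with control lung 4 below the other 3. Of the 16 genes measured in the endothelial list, 15 were above background on all 4 arrays, against 77.9% of all named genes. SELE, the selectin of activated endothelium, was above background on none.

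Growth signals were headed by IGF2, the fetal insulin-like growth factor, which read 6.82, 7.18, 7.16 and 7.23 (rank 40). IGFBP4 and IGFBP6, binding proteins of these factors, had means of 4.86 ± 0.22 and 3.57 ± 0.21. Of 46 genes of growth and morphogenesis signals, 40 were above background on all 4 arrays, against 77.9% of all named genes. SHH, the epithelial hedgehog ligand of lung branching, was the member above background on none. Cell division genes were even between lungs. CCND2, a cyclin that starts the cycle, had a mean of 2.2 ± 0.24, and PCNA, the clamp of replicating DNA, of 0.41 ± 0.09. CCNB1, the mitotic cyclin, had a mean of -0.95 ± 0.27. All 11 measured genes of this list were above background on all 4 arrays, where 77.9% of all named genes were.

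Of the genes that move salt and water, ATP1B1, the beta 1 subunit of the sodium pump, read 2.72, 3.09, 3.18 and 3.26, and control lung 1 was the lowest. Its second probe, which shares 54 bases on the opposite strand with an unnamed probe that read 0.67, had a mean of 2.25. AQP4 and AQP1, water channels, had means of -0.03 ± 0.75 and -1.32 ± 0.25. The epithelial sodium channel subunits, named after their values were seen, were dim, with SCNN1B at -3.16 ± 0.18, SCNN1A at -5.08 ± 0.35, and SCNN1G at -6.45 ± 0.21 and above background on 2 of 4 arrays.

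The corticosteroid system was represented at several levels. TXNIP, an inhibitor of thioredoxin that responds to glucose, was bright and even at 5.01, 5.00, 5.34 and 5.16 (rank 188). NR3C2, the mineralocorticoid receptor, read 0.51, 1.06, 1.41 and 0.47, and its second probe had a mean of -0.53. NR3C1, the glucocorticoid receptor, named after its values were seen, had a mean of -3.43 ± 0.62 on its only probe. HSD11B1, which activates cortisol, read 0.72, -0.20, -0.28 and 1.36, and HSD11B2, which inactivates it, read -0.68, -0.42, -0.51 and -1.83. The order of the lungs differed between the enzymes, with control lung 4 highest for HSD11B1 and lowest for HSD11B2. The second probe of HSD11B1 had a mean of -2.09, below both probes of HSD11B2, at -0.86 and -0.95. Which enzyme gave the brighter signal therefore depended on the probe. AGTR1, the type 1 angiotensin receptor, had a mean of 1.02 ± 0.39, while ACE, the angiotensin converting enzyme, was at -5.50 ± 0.37.

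Ribosomal protein genes were also near the top. All 23 measured were above background on all 4 arrays, against 77.9% of named genes, and 21 were in the brightest 10% of probes. RPL6 had a mean of 7.76 ± 0.22, and RPS12 read 7.78, 8.03, 8.09 and 7.96. Control lung 1 gave the lowest value for 20 of the 23, against 27.1% of all detected probes. RPL32 at -2.16 and RPS15 at -5.21, named after their values were seen, were the members outside that group. FTH1, the heavy chain of the iron store ferritin, and TPT1, a translationally controlled protein, had means of 7.57 ± 0.12 and 7.66 ± 0.19.

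Common reference genes did not all read high. ACTG1, gamma actin, had a mean of 5.45 ± 0.20. The only probe for ACTB, beta actin, was above background on no array, with a mean of -8.61. GAPDH spread from 3.11 to -3.73 over its 5 probes, and the probe at -3.70 is the dimmer one of the pair of opposite strand shown above. The antioxidant genes GSTA1, a glutathione transferase, and SOD1, the cytosolic superoxide dismutase, were bright on their brightest probes, at 5.39 ± 0.20 and 4.54 ± 0.18. Over its 4 probes GSTA1 spread from 5.39 to -3.8.

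Where the gene lists lie in the signal order is drawn for all lists with at least 5 measured members.

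**Figure D3:**
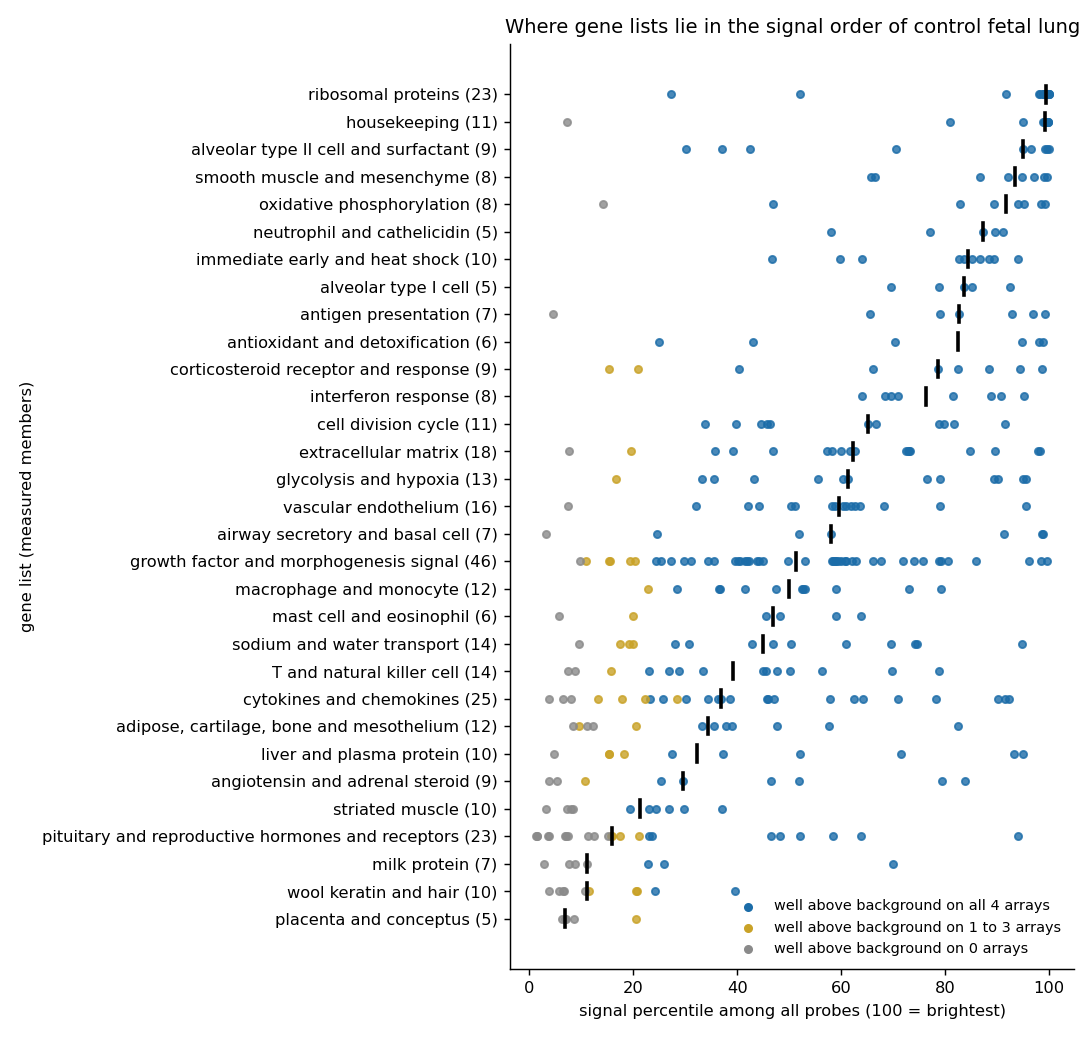
Percentile of each measured gene among 15008 probes (horizontal axis) for gene lists (vertical axis, measured members in brackets), coloured by the number of arrays on which the gene was well above background, with the median of each list as a black bar. Ribosomal proteins have a median of 99.5 and placenta and conceptus genes of 6.9.

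Red cell genes differed widely between lungs. HBB, beta globin, read 5.09, 7.18, 6.73 and 4.48, with control lungs 2 and 3 above 1 and 4. AHSP, the chaperone of alpha globin in red cell precursors, read -3.39, -0.79, -2.07 and -4.71 in the same order of lungs as that HBB probe. The second HBB probe read 3.52, 4.46, 5.22 and 2.95, so there control lung 3 was the highest, and control lung 4 was the lowest on both HBB probes. A transcript described as fetal hemoglobin subunit beta read -1.69, 1.33, 0.94 and -1.29, with control lung 1 the lowest. CA1, carbonic anhydrase 1 of red cells, read -1.18, -0.54, 1.34 and 0.38, in another order. The median SD of HBB, AHSP and CA1, the 3 measured genes of the red cell list, was 1.29, against 0.257 for all detected probes.

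Cathelicidins, the stored antimicrobial peptides of neutrophils, were highest in 1 lung. BAC5 read 1.88, 3.31, 2.28 and 1.11, CATHL1B read 1.75, 2.99, 1.98 and 0.83, and CATHL3 read 1.00, 2.50, 1.99 and 0.51. All 5 genes of the neutrophil list were highest in control lung 2, which was highest for 20.1% of detected probes, and 4 were lowest in control lung 4, which was lowest for 35.0% of them. The cathelicidins are close relatives, and their probes may share transcripts.

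Macrophage and monocyte genes were detected at moderate signal. CYBA, a subunit of the phagocyte oxidase, had a mean of 0.46 ± 0.34 and CD14, the lipopolysaccharide co-receptor, of -2.08 ± 0.25. ITGB2, the leukocyte integrin beta 2, read -0.26, -0.26, -0.62 and 0.38. Of 12 measured genes 11 were above background on all 4 arrays, where 77.9% of all named genes were. Of these 11, 10 were highest in control lung 4, against 33.8% of all detected probes.

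The 14 measured T and natural killer cell genes had a median percentile of 39.2. Of these, 11 were above background on all 4 arrays, against 77.9% of all named genes. CD3E, a chain of the T-cell receptor complex, read -0.06, -0.10, -0.35 and -1.58, with control lung 4 the lowest. GATA3, a transcription factor of T cells and of epithelium, went the other way at -0.19, -0.33, 0.08 and 2.08. The 2 genes of this list above background on no array were CD4 and CD28, T-cell surface proteins. Among all named genes that share was 11.5%. Of 48 probes described as T-cell receptor chains 27 were above background on no array, as were 47 of 79 immunoglobulin probes, against 12.6% of all probes. Several of these probes are described as rearranged or variable-region sequences of single clones. Whether those sequences match the chains of these animals was not tested. By comparison, 13 of 16 probes described as MHC class I were in the brightest 10%, and B2M, the light chain of MHC class I, had a mean of 5.82 ± 0.32. These chains differ between animals and resemble each other, so their probes can share transcripts.

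Control lung 4 differed from the other control lungs in several cytokine genes. CXCL8, the neutrophil chemokine interleukin 8, read -2.95, -3.34, -2.77 and 2.6, which put control lung 4 5.62 above the mean of the other 3, a 49.2-fold difference on the linear scale. IL1B, the cytokine interleukin 1 beta, read -3.93, -4.14, -4.19 and 0.90, and TNF, tumour necrosis factor, read -2.22, -2.30, -2.61 and 2.36. In all of these the other lungs lay within 0.6 of each other and below control lung 4.

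Other genes of several lists, picked after their values were seen, were also high in control lung 4. NFKBIA, the inhibitor of NF-kappa B that NF-kappa B itself induces, read 1.28, 1.22, 1.31 and 5.04. SELP, the selectin that recruits leukocytes to vessels, read -3.90, -4.43, -4.12 and -0.48. JUNB, an immediate early transcription factor, read -2.11, -2.04, -2.67 and 1.11. IRF1, a transcription factor of the interferon response, read -1.60, -2.06, -1.96 and 1.42, and RHOB, a small GTPase induced by stress, read -3.35, -3.48, -3.55 and 0.23. Related genes did not all do so. EGR1, another immediate early transcription factor, read -2.87, -2.73, -2.92 and -2.47, and SELE was above background in no lung. Of the 10 immediate early and heat shock genes, 5 were highest in control lung 4, against 33.8% of all detected probes.

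Of the 18 cytokine and chemokine genes above background on all 4 arrays, 14 were highest in control lung 4, against 33.8% of all detected probes. The mean deviation of the 18 genes there was 1.5. The median SD of these genes was 0.98 over 4 lungs and 0.31 without control lung 4. Beside these genes, the neutrophil list deviated by -0.90 and the red cell list by -1.0 in control lung 4, and the macrophage list by 0.62. By Dixon's ratio, the gap of the extreme lung over the range of the 4, 1 lung stood apart for 8.05% of detected probes, where 5.04% of probes simulated without change did, and in 628 of these 938 probes it was control lung 4. The part of cell content and of array background in the difference was not tested, and 1 lung allows no test.

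**Figure D4:**
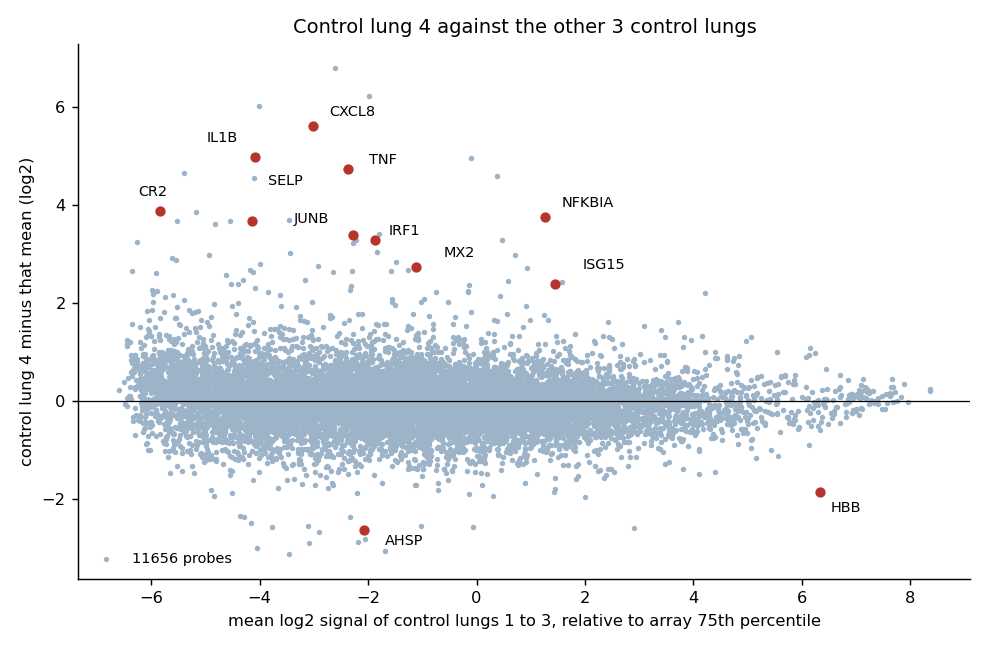
Control lung 4 minus the mean of control lungs 1 to 3 (vertical axis, log2) against that mean (horizontal axis, log2 relative to the array's 75th percentile) for 11656 detected probes, with genes named in the text in red. CXCL8, IL1B, TNF and NFKBIA lie 5.62, 4.99, 4.74 and 3.77 above the line of no difference, and HBB lies 1.86 below it.

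Interferon-induced genes had a pattern of their own. ISG15, a ubiquitin-like protein, read 0.78, 3.30, 0.27 and 3.85, and MX2, an antiviral GTPase, read -2.06, 0.34, -1.60 and 1.62, so that control lungs 2 and 4 were high for both. MX1, its relative, read 2.21, 2.96, -0.22 and 1.94, with control lung 3 the lowest. FOS, an immediate early gene, read 2.85, 1.74, -1.19 and 2.30, and control lung 3 was also the lowest on each of its other 3 probes, at -6.17, -6.10 and -7.64.

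**Figure D5:**
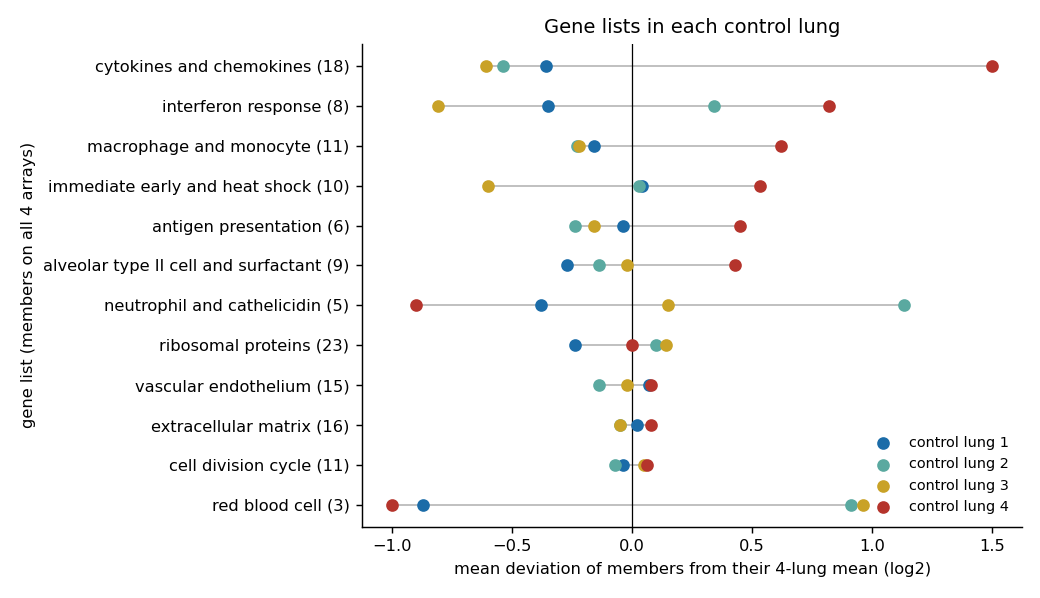
Mean deviation of the genes of a list from their 4-lung mean (horizontal axis, log2) for gene lists (vertical axis, members detected on all 4 arrays in brackets), with 1 coloured point per control lung. Cytokines and chemokines reach 1.5 in control lung 4, while cell division and matrix genes stay within 0.1 of 0 in every lung.

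For most transcripts the lungs differed little. The median SD over 4 lungs of the 11656 detected probes was 0.257, with the middle of the distribution from 0.171 to 0.383. It fell from 0.366 in the dimmest 10% of these probes to 0.209 in the brightest 10%. Repeated spots of 33 detected probes on an array had a median SD of 0.082, against 0.324 between lungs for the same probes.

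A few genes were nearly the same in every lung. GGCX, the vitamin K-dependent carboxylase, read -2.26, -2.23, -2.29 and -2.24, an SD of 0.02. SMPD1, acid sphingomyelinase, had an SD of 0.03, PFKL, a phosphofructokinase of glycolysis, of 0.04, CDK2, a kinase of the cell cycle, of 0.04, and EIF1AX, a translation initiation factor, of 0.05.

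At the other end, 210 detected probes had an SD of 1 or more over the 4 lungs, and 170 had one without control lung 4. Of the 20 annotated transcripts with the largest SD among 909, 13 were highest in control lung 4, against 33.8% of all detected probes. Without that lung, 9 of them were again among the 20 largest. CYM, chymosin, a milk-clotting protease of the young ruminant's stomach, varied most in both rankings, at -6.36, -3.02, 0.62 and -0.17. CYP1A1, a drug-metabolising enzyme induced by aromatic compounds, read -2.58, -6.13, -1.68 and -2.22, with control lung 2 the lowest. DIRAS3, a small GTPase, read -3.53, -0.80, -5.23 and -4.57, with control lung 2 the highest.

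Genes of other organs were more often at background than named genes as a whole in most, not all, of their lists. Of the 23 measured pituitary and reproductive genes 11 were above background on no array, as were 4 of 7 milk protein genes, 5 of 10 wool keratin and hair genes, 4 of 10 striated muscle genes and 4 of 5 placenta and conceptus genes. Among all 989 named genes this share was 11.5%. Of 10 liver and plasma protein genes 1 was above background on no array and 6 were on all 4, 2 of them in the brightest 10% of probes, and of 12 genes of adipose tissue, cartilage, bone and mesothelium 3 were on none and 7 on all 4. The other 6 striated muscle genes were above background on all 4 arrays. Some of those detected rested on 1 of their probes. LHB, the beta subunit of luteinizing hormone, read 2.71, 2.91, 2.54 and 3.03 on 1 probe and had a mean of -3.94 on the other. CSN2, beta casein, had a mean of -0.51 on 1 probe and of -8.86 on the other, and CYP17A1, a steroid hydroxylase of adrenal and gonad, of 0.49 and of -3.17. COX5A, a subunit of the respiratory chain present in all tissues, was above background on no array, as ACTB was, so a probe at background does not show that its transcript was missing.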

How the data were processed

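RNA of 4 control fetal lungs was measured on 1-colour Agilent sheep arrays. Per the file headers, the deposited intensity of each spot is the processed signal of Agilent Feature Extraction 10.1.1.1, background-subtracted and detrended within the array. The log2 values of the authors' deposited table equal log2 of that signal minus a constant for each array over 12563 spots, and centre on the median. Here non-control spots were used, spots flagged as outliers were left out, and log2 intensity was taken relative to the array's 75th percentile. Spots of a probe were averaged, 5 for each of 50 probes. A probe counted as well above background where at least 0.5 of its kept spots did, and 16 probes lacked a value on an array. Saturation was flagged on 0 spots of the control arrays. Symbols came from the array files and from a RefSeq gene table for names only, with 13369 probes left unnamed.

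Values are descriptive, with no test between groups. The precision is limited by 4 arrays, and the SD covers lungs and arrays together. The members and gene lists were chosen with earlier results of these data known. Named genes were the 40 brightest probes, the marker genes, up to 6 brightest genes and the undetected genes of each list, the most and least variable, those nearest the median, and those that deviate in 1 lung, and the text gives a part of them; some are not reported here. Dixon's ratio (gap of the extreme lung to its neighbour over the range) marks a lung apart. On data simulated for 11656 probes it marked 5.04% of unchanged probes, 15.0% of probes shifted by 1 in 1 array and 50.0% of those shifted by 2. Python 3 with pandas and, for the alternative background correction, limma were used.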

Additional observations from a re-analysis of the deposited data

Results flagged for a closer look

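A lung was marked where its gap to the nearest of the other 3 exceeded Dixon's 95% critical share of the range. Of probes simulated without change, each drawn independently, 5.04% were marked, as that critical value sets in advance. Probes of an array can shift together, so this share is no test of the share in the data. Of 11656 detected probes, 938 (8.05%) met the criterion. In 628 of them the lung apart was control lung 4, high in 257 and low in 371. Control lungs 1, 2 and 3 were apart in 154, 75 and 81.

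Among the genes named above, control lung 4 stood apart as the high lung for CXCL8 (2.6), IL1B (0.90), TNF (2.36), NFKBIA (5.04), RHOB (0.23), SELP (-0.48), JUNB (1.11), IRF1 (1.42), ICAM1 (3.04), GATA3 (2.08) and SFTPD (3.77). It stood apart as the low lung for TIE1 (-2.03). These values are of each gene's brightest probe. Of the 12 genes 6 had a second probe above background on all 4 arrays, and 4 of these probes met the same criterion. Those of SFTPD, at a ratio of 0.698, and GATA3, at 0.79, fell short of it, with control lung 4 again the highest. Genes were named in part for a large deviation in 1 lung, as those from CXCL8 to IRF1 above had in control lung 4. Their marks follow largely from that choice, so they cannot be set against the 5.04%.

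Averaged over the detected members of a list, control lung 4 stood apart as the high lung for the cytokine and chemokine genes (-0.57) and for the macrophage and monocyte genes (-1.77). Several of the named genes above are members of these lists, so the list values are not independent of them.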

How the results depend on the processing

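No paired analysis was possible because only the control group is described and no groups are compared. The number of probes above background on no array was 1886 and became 599 with the scanner's weaker flag of a positive and significant signal, and the number on some arrays was 1466. The median SD between lungs was 0.257 and became 0.201 after normexp background correction and quantile normalization. Leaving out each lung in turn gave 11682 to 11805 probes above background on every array, 1921 to 2399 on none, 927 to 1306 on some, 96 to 99 of the 100 brightest probes again among the brightest 100, and a median SD of 0.182 to 0.270. The lowest of these SDs and of the counts on some arrays, and the highest count on none, came without control lung 4. Of the 100 brightest probes, 96 to 100 were again among them under the other settings tried. The authors' table holds the same values on another scale, so it is no independent check, and it lists fewer spots, which shifts percentiles. Percentiles of 8 of 106 named genes moved by more than their SD over lungs after normexp and quantile normalization. For 13 of 36 gene lists the median percentile moved by more than its SD over lungs when all probes of a gene were averaged. Signal near background limits the genes that read below about -6. In a check added after seeing the data, control lung 4 stayed above the mean of the other 3 in CXCL8, IL1B, TNF, NFKBIA, SELP, JUNB, IRF1 and RHOB after normexp and quantile normalization, with CXCL8 at 5.16 and SELP, the smallest of the 8, at 2.93.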

Other observations

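Probes of opposite strand were found beside other genes. A probe of RPL4, a ribosomal protein, had a mean of 6.43, and an unnamed probe that shares 59 bases with it as reverse complement had a mean of -3.56. A probe of RPS2, another ribosomal protein, had a mean of 7.27, and its opposite-strand partner over 55 bases, also unnamed, had a mean of -3.96. For LMNB1, lamin B1 of the nuclear envelope, the means were -2.4 and -7.28 over 59 bases. In these cases the dim probe, read alone, would have placed the transcript near or below the middle of the signal order. Where both probes of a pair carry no gene name, which of them reads the transcript was not settled.

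An unnamed probe held rank 2 of all probes, at 8.26, 8.24, 8.59 and 8.56 in control lungs 1 to 4. It shares no run of 20 bases with another probe of the array, so these data give it no gene.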
